A study of Mus musculus with 5 samples.

Results

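The 10 genes described here encode immediate-early transcription factors and a close companion: Fos, Fosb, Jun, Junb, Jund, Egr1, Atf3, Ier2, Klf4 and Myc. They were taken by name from 46983 genes listed in each count file, of which 14580 were tested, and all 10 passed the filter on low counts. Immediate-early genes are switched on within minutes of a signal at the cell surface, without new protein synthesis, by kinases that act on factors already bound at their promoters. FOS and JUN proteins pair through leucine zippers to form AP-1, which binds DNA and turns on later genes, and JUN proteins also pair with each other and with ATF proteins. In macrophages these factors answer growth factors, cytokines and microbial products. Enzymatic dissociation and sorting of a tissue are also known to raise them, which is why every library is shown.

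The libraries came from EO771 orthotopic mammary tumours in mice of the C57/BL6 strain, EO771 being a mouse mammary carcinoma line. The Treg-ablated group (2 libraries) received diphtheria toxin, 2 doses of 50 µg per kg, to remove regulatory T (Treg) cells, and the cells were taken on day 4. For the control group (3 libraries) no toxin dose is recorded, so toxin and Treg loss cannot be told apart. The labels used here name no allele, promoter, age or sex. Nothing in them says that the libraries stand for different mice, so every p-value measures the spread among these 5 libraries alone, and that spread may be technical. The sort gate was CD45+ CD11B+ Ly6G- F4/80+, the label of tumour-associated macrophages. Totals per library ran from 13122668 to 20156835 counts. Against that label, the defining macrophage transcripts were low: Adgre1, which encodes F4/80, had 5.733 to 9.866 CPM (depth-scaled counts) and 14 macrophage markers summed to 222.4 to 428.6 CPM over the 13 tested, while 15 fibroblast markers summed to 20640 to 26290 CPM. No value below is therefore assigned to a cell type.

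Promoter sequences were available from RefSeq (GRCm38.p6) for 7 of the 10 genes, and 5 are printed: Fos, Fosb, Jun and Klf4, which were higher after ablation, and Junb, which did not pass. Each is the stretch of 250 bases that ends at the base before the start that RefSeq gives, 5′ to 3′ on the strand of the gene. Capitals mark TGACG (on either strand, CGTCA on the other), the core bound by CREB and ATF proteins, TGANNTCA, the variant AP-1 and ATF site of the Jun promoter, and TATAAA.

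Fos promoter, chr12:85473640-85473889, plus strand: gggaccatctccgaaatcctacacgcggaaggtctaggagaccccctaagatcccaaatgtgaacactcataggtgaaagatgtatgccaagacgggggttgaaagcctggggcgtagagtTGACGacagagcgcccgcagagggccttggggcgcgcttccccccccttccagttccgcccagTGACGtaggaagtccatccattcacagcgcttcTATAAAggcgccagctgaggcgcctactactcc

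Fosb promoter, chr7:19310046-19310295, minus strand: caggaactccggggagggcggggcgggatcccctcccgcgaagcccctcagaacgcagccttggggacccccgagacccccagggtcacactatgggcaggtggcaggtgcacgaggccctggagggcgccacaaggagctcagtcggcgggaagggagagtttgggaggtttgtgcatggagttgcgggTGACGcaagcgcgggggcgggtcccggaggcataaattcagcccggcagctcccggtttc

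Jun promoter, chr4:95052223-95052472, minus strand: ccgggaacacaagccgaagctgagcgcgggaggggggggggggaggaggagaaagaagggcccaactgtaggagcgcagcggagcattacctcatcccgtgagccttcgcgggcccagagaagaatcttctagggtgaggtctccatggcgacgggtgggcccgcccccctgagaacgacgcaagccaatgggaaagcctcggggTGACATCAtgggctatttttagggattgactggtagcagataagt

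Klf4 promoter, chr4:55532476-55532725, minus strand: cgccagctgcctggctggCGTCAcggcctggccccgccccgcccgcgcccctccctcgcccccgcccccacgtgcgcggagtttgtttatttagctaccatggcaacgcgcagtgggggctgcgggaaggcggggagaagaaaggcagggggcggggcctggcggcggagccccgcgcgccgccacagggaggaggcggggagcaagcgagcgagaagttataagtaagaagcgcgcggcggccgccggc

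Junb promoter, chr8:84978749-84978998, minus strand: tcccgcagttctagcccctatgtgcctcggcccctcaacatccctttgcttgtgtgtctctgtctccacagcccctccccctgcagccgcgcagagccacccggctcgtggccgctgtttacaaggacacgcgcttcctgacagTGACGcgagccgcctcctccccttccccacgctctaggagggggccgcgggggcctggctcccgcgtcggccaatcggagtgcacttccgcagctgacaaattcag

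Both strands were searched, and 32851 promoter windows of the same length gave the background. TGACG was present in 5 of the 7 windows (Fos, Fosb, Junb, Atf3 and Klf4) against 17.8% of all windows, and was added to the search after the sequences were seen. In Fos it began 129 and 66 bases before the start and TATAAA 33 bases before it. TGANNTCA, which can overlap a TGANTCA or TGACG match, was present in Jun (45 bases before the start) and Jund against 11.9% of all windows. GCGNGGGCG, the sequence EGR1 binds, was present in Fosb and Klf4 against 4.7%, GGGCGG, which overlaps it, in 5 windows against 32.7%, and TATAAA in Fos alone against 12.4%. The kappa B site was found in Fos and Fosb against 3.9%, and CACGTG, the MYC site, in Klf4 against 6.02%. TGANTCA (6.75% of all windows), the CArG box (1.47%) and TTCNNNGAA (7.02%), the sequence STAT dimers bind, were in none of the 7 windows. Sites outside these 250 bases were not searched, nor were Egr1, Ier2 and Myc, which had no window. These matches describe letters and no binding was measured.

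Higher in the Treg-ablated libraries were 7 of the 10 genes, at an edgeR adjusted p under 0.05: Klf4, Myc, Jun, Fosb, Egr1, Jund and Fos, by 1.18-fold to 1.64-fold. None was lower, and Atf3, Junb and Ier2 did not pass. Over all genes tested 13.5% were higher and 12.3% lower. The median log2 fold change of the 10 genes was 0.34, against -0.01 over all genes tested. Tested against a fold of 1.5, 0 of the 10 passed, although the estimates of Klf4 (1.64-fold) and Myc (1.54-fold) were above it. Over all genes tested 98 were higher and 23 lower by that test. Failing it does not show that a change is below 1.5-fold. In 9 genes both Treg-ablated libraries lay above all 3 controls, an order found in 26.9% of all genes tested.

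**Figure D1:**
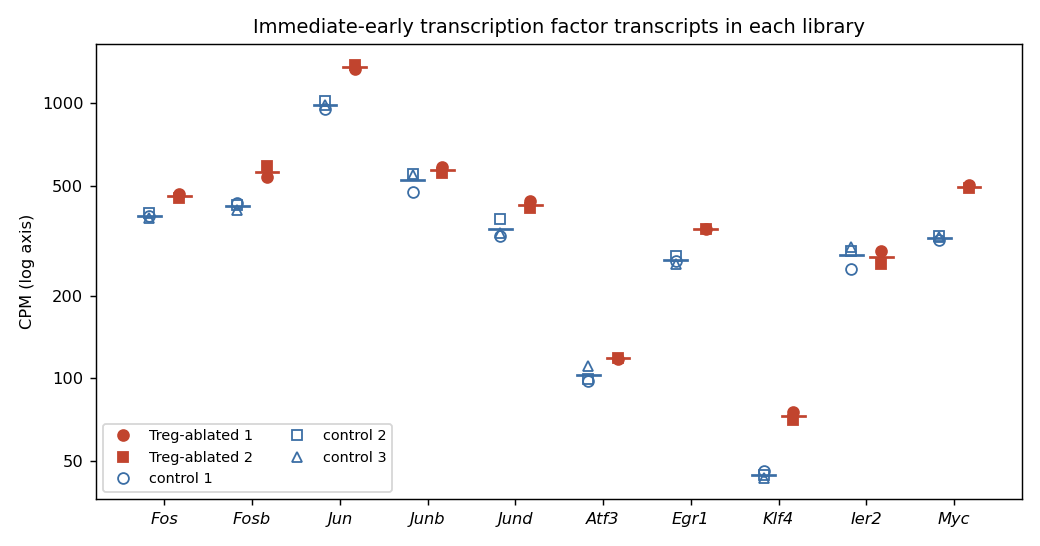
CPM (log axis) of the 10 genes in each library; filled red symbols are the Treg-ablated libraries, open blue symbols the controls, symbol shapes the replicate numbers and short lines the group means. The groups are apart for every gene but Ier2, and the controls spread most for Ier2 and Junb.

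Fos encodes the founding FOS protein, which cannot pair with itself and needs a JUN partner (ENSMUSG00000021250, chromosome 12, 85473890 to 85477273, plus strand, GRCm38). It had 469.7 and 453 CPM in Treg-ablated replicates 1 and 2, and 388.6, 397.7 and 381.7 CPM in control replicates 1 to 3. Both Treg-ablated libraries were above the controls, which lay within 1.04-fold of each other. Fos rose 1.18-fold (log2 fold change 0.24, SE 0.0641, adjusted p = 0.0191). The call ended without Treg-ablated replicate 1 (adjusted p = 0.0906) and without control replicate 2 (adjusted p = 0.0782). Fosb encodes another FOS protein, known also for a shorter and more stable splice form (ENSMUSG00000003545, chromosome 7, 19302721 to 19310045, minus strand). It had 537.8 and 590.3 CPM in the Treg-ablated libraries and 433, 427.7 and 408 CPM in the controls, with no overlap, and rose 1.33-fold (log2 fold change 0.42, SE 0.07, adjusted p = 0.00271). It passed in each of 14 alternatives run, the test against a fold of 1.5 aside.

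Jun encodes c-JUN, the AP-1 subunit most active in turning genes on (ENSMUSG00000052684, chromosome 4, 95049034 to 95052222, minus strand, 1 exon). It was the most abundant of the 10, with 1330 and 1384 CPM after ablation and 958, 1018 and 987.6 CPM in the controls. The groups were well apart, and Jun rose 1.37-fold (log2 fold change 0.46, SE 0.0688, adjusted p = 0.00167). Of its exon bases 7.28% are shared with the antisense gene Junos, where fragments could be given to neither gene. Junb encodes a JUN protein that can oppose c-JUN (ENSMUSG00000052837, chromosome 8, 84976909 to 84978748, minus strand, 1 exon). It had 586.8 and 557.4 CPM in the Treg-ablated libraries and 475.6, 554.6 and 551 CPM in the controls. Control replicate 1 stood below the other two controls, which were close to Treg-ablated replicate 2, and the difference did not pass (0.12 on the log2 scale with an SE of 0.0813, adjusted p = 0.311). Jund encodes the JUN protein that resting cells also hold (ENSMUSG00000071076, chromosome 8, 70697739 to 70700616, plus strand, 1 exon). It had 439.8 and 415.2 CPM against 328, 379.3 and 336.9 CPM, with control replicate 2 the highest control. Jund rose 1.23-fold (log2 fold change 0.30, SE 0.0777, adjusted p = 0.0194). This call ended without Treg-ablated replicate 1 (adjusted p = 0.0764) and without control replicate 1 (adjusted p = 0.0579). Gm11175 on the other strand covers 18.9% of the exon bases of Jund, so its level is understated where fragments fell there.

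Atf3 encodes a stress-induced ATF protein that pairs with JUN proteins and often represses (ENSMUSG00000026628, chromosome 1, 191170296 to 191218039, minus strand). It had 117.4 and 118.6 CPM after ablation and 97.62, 99.71 and 110.4 CPM in the controls. Control replicate 3 lay nearest to the Treg-ablated libraries, and the difference did not pass (0.20 on the log2 scale with an SE of 0.0727, adjusted p = 0.0636). Without control replicate 3 it passed (adjusted p = 0.031), as it did with scaling by library size alone (adjusted p = 0.0434). Egr1 encodes a zinc finger factor induced by growth signals (ENSMUSG00000038418, chromosome 18, 34859823 to 34864984, plus strand). It had 349.1 and 350.4 CPM after ablation and 268.1, 279.3 and 260 CPM in the controls. The groups did not overlap, and Egr1 rose 1.3-fold (log2 fold change 0.38, SE 0.0643, adjusted p = 0.00282). Its corepressor gene Nab1 rose as well (log2 fold change 0.59, SE 0.0693, adjusted p = 0.000521), while Nab2, the other listed one, did not pass (log2 fold change 0.07, SE 0.0898).

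Klf4 encodes a Krüppel-like zinc finger factor that takes part in monocyte differentiation and is one of the pluripotency factors (ENSMUSG00000003032, chromosome 4, 55527143 to 55532466, minus strand). It was the scarcest of the 10, with 75.4 and 70.3 CPM after ablation and 46.09, 44.37 and 43.26 CPM in the controls. Klf4 also had the largest fold of the 10, 1.64-fold (log2 fold change 0.71, SE 0.0712, adjusted p = 0.000246), and the groups were far apart relative to the spread of the controls, which lay within 1.07-fold. Myc encodes the bHLH factor c-MYC, which drives growth and ribosome production with its partner MAX (ENSMUSG00000022346, chromosome 15, 61985341 to 61990374, plus strand). It had 505.2 and 491.1 CPM against 317.4, 330 and 326.3 CPM. Myc rose 1.54-fold (log2 fold change 0.62, SE 0.0631, adjusted p = 0.000269), and its controls lay within 1.04-fold of each other. Ier2 encodes a short-lived nuclear protein (ENSMUSG00000053560, chromosome 8, 84661331 to 84662852, minus strand, 1 exon). It had 290.1 and 260.3 CPM after ablation and 250.3, 289.5 and 299.6 CPM in the controls. The groups overlapped, control replicate 3 was the highest library, and Ier2 did not pass (-0.02 on the log2 scale with an SE of 0.0874, adjusted p = 0.87).

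**Figure D2:**
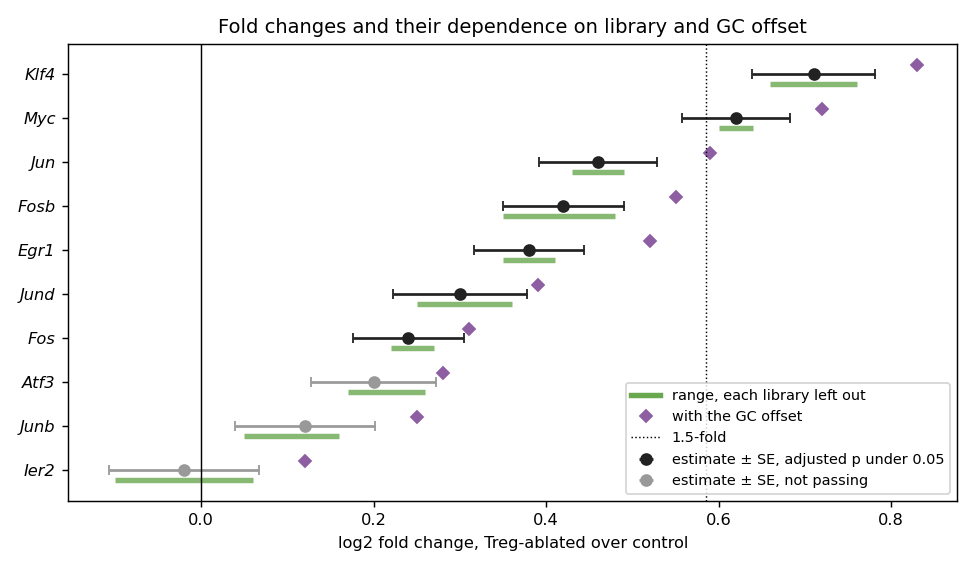
log2 fold change of each gene with its SE (circles; black where the adjusted p is under 0.05), the range over fits that each leave out 1 library (green bars) and the estimate with a GC offset (diamonds); the dotted line marks a 1.5-fold difference. Klf4 at 0.71 and Myc at 0.62 lie farthest from 0, and all diamonds lie to the right of the circles.

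The 10 transcripts are richer in G and C than the median of the genes tested (49.4%), from 51.9% in Fos to 67.1% in Jund. With an offset for GC content their log2 fold changes were higher by 0.07 (Fos) to 0.14 (Fosb, Jun, Egr1 and Ier2), and 9 of the 10 passed. Junb then passed (log2 fold change 0.25, adjusted p = 0.0254), as did Atf3 (0.28, adjusted p = 0.0173), and Ier2 did not (0.12, adjusted p = 0.272). The sequence ATTTA, part of the AU-rich elements of unstable mRNAs, occurred at least once after the stop codon in 9 of the 10 genes, against 69.7% of 12161 coding genes tested. At least 2 copies were held by 6 of the 10, against 50.7% of these coding genes, so the gap was narrower there. Fos and Jun each held 4 copies, and Ier2 held 0.

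Per kilobase of exon, a scale on which genes can be set side by side, Jun led with 300.4 to 434 CPM per kb over the 5 libraries. Junb followed at 258.5 to 318.9 and was below Jun in every library. Ier2 (164.4 to 196.8) and Fos (162.3 to 199.7) were not separated, nor were Myc (114.7 to 182.6), Fosb (108.8 to 157.4) and Jund (114 to 152.8). Egr1 (57.98 to 78.14), Atf3 (45.32 to 55.05) and Klf4 (14.19 to 24.73) were lower in this order, without overlap. Jun ranked above 98.9% of the genes tested on this scale and Klf4 above 74.2%.

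Within the JUN family, the shares of Jun and Junb among the transcripts did not overlap between the groups. The ratios of Jun to Jund, Junb to Jund, Fos to Jun and Fosb to Fos did not overlap between the groups either. The ratio of the summed JUN family to the summed FOS family did overlap. How often such an order occurs over other gene pairs was not counted. Jun made up 46.9% and 49.3% of the summed CPM per kb of Jun, Junb and Jund in the Treg-ablated libraries, and 44.6%, 42.4% and 42.6% in the controls. Junb made up 35.9% and 34.4% against 38.4%, 40.1% and 41.2%, and the share of Jund overlapped. The Jun to Junb ratio was 1.31 and 1.43 after ablation and 1.16, 1.06 and 1.03 in the controls, a difference of 0.34 on the log2 scale. An exact permutation test (two-sided) gave p = 0.1, the smallest that 2 against 3 libraries allow. Because the ratio did not overlap between the groups, this p-value largely restates that order and is no further support. The same holds for the Fosb to Fos ratio below, the only other ratio tested. The GC offset left the Jun to Junb difference at 0.35. In the FOS family, Fosb made up 29.6% and 32% of the summed CPM per kb against 29.2%, 28.4% and 28.1%, so Treg-ablated replicate 1 lay close to the controls. The Fosb to Fos ratio differed by 0.17 on the log2 scale (exact permutation p = 0.1, two-sided), by 0.08 without Treg-ablated replicate 2 and by 0.26 without Treg-ablated replicate 1. Fosl1, which encodes FRA-1 and is often high in carcinoma and mesenchymal cells, held 22.6% to 24.4% of the family over all libraries, and Fosl2 5.03% to 6.27%.

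**Figure D3:**
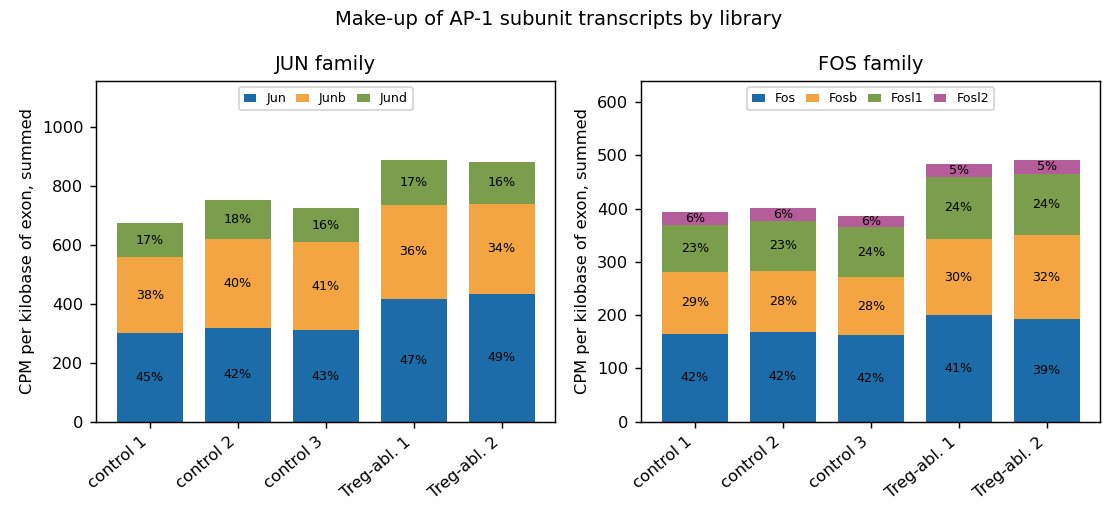
Stacked CPM per kilobase of exon of the JUN family (left) and FOS family (right) in each library, with each gene's share of its family as a rounded percentage. Total JUN family levels were 672.8 to 752.6 in controls and 881.3 to 888.8 after ablation, and the share of Junb was 38.4% to 41.2% in controls and 34.4% to 35.9% after ablation.

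Among 18 other AP-1 and related bZIP genes tested, 5 were higher, 1 lower and 12 did not pass, with a median log2 fold change of 0.14. Batf2, an interferon-induced partner of JUN proteins, rose most, from 8.465, 7.612 and 7.942 CPM in the controls to 20.93 and 16.97 CPM (log2 fold change 1.25, SE 0.123, adjusted p = 0.000229). Crem (log2 fold change 0.66), Atf1 (0.48), Fosl1 (0.33) and Mafg (0.25) rose, and Atf5 fell (-0.41). The Mafg call ended when Treg-ablated replicate 2 was left out, and also when control replicate 2 or 3 was, and the Atf5 call ended without control replicate 2. Fosl2, named after its value was seen, did not pass (0.12, adjusted p = 0.308). With the GC offset 8 were higher and 2 lower, and 3 were lower without Treg-ablated replicate 2 or without control replicate 3.

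Other immediate-early and early response genes were higher in 24 of 46 tested, 0 were lower and 22 did not pass, with a median log2 fold change of 0.26. The 6 with the smallest p are given first. Nfkbia, which encodes the inhibitor IκBα, rose from 530.9, 570 and 602.4 to 976.7 and 869.1 CPM (log2 fold change 0.70, SE 0.08, adjusted p = 0.000449). Tnfaip3, which encodes the inhibitor A20, rose from 190.1, 187.5 and 197.3 to 286 and 337.3 CPM (log2 fold change 0.70), and Nfkbiz rose from 237.8, 224.6 and 239.6 to 355.9 and 370.3 CPM (0.63). Irf1, an interferon response factor, rose by 0.74, the growth arrest gene Gadd45a by 0.61 and the kinase gene Sgk1 by 0.54 on the log2 scale. Among genes that did not pass, Dusp1, a MAP kinase phosphatase gene, had 188.4 and 172.2 against 168, 181.1 and 177.9 CPM (log2 fold change 0.04, adjusted p = 0.725). Nr4a1 (0.12, adjusted p = 0.264) and Egr2 (0.28, adjusted p = 0.246) did not pass either, whereas Zfp36, which encodes an mRNA decay factor, rose (0.46, adjusted p = 0.0011). Dusp1, Nr4a1, Egr2 and Zfp36 were named after their values were seen. Nr4a1 passed with the GC offset (adjusted p = 0.0231).

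Of 10 other Krüppel-like factor genes tested 6 were higher, 1 lower and 3 did not pass, with a median log2 fold change of 0.37. Klf6, the most abundant, rose from 665.1, 640.1 and 670.1 to 933.1 and 933.9 CPM (log2 fold change 0.50, SE 0.0656, adjusted p = 0.000862). Klf9 (log2 fold change 0.54), Klf7 (0.43), Klf11 (0.41) and Klf2 (0.34) rose, and Klf16 fell (-0.35). Klf5, named after its value was seen, was scarce at 5.044 and 4.224 against 3.023, 3.405 and 2.369 CPM, and its call (log2 fold change 0.65) ended in 8 of 14 alternatives. Without control replicate 2 the list had 3 higher and 0 lower, Klf7, Klf11 and Klf16 among those lost. The Klf11 and Klf16 calls also ended without Treg-ablated replicate 2, and that of Klf16 with the GC offset.

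Heat-shock and other genes of the dissociation stress response went both ways: of 19 tested, 8 were higher, 3 lower and 8 did not pass. The median log2 fold change was 0.16, and 42.1% were higher, against 13.5% of all genes tested. Summed, the list had 9592 and 9158 CPM after ablation and 8392 to 8566 CPM in the controls. The metallothionein genes Mt2 and Mt1 rose by 1.29 and 0.81 on the log2 scale (adjusted p = 6.58e-05 and 0.000938). The chaperone genes Hspd1 (0.37), Dnajb9 (0.38), Hspa5 (0.32) and Hsp90aa1 (0.36) rose less. Hspa1a, the classical heat-shock gene, was lower at 3.657 and 4.45 against 6.046, 5.609 and 6.2 CPM (log2 fold change -0.56, adjusted p = 0.0291), and its near-identical copy Hspa1b did not pass (0.11, adjusted p = 0.314), so reads shared by these copies make both values uncertain. Srxn1, which encodes sulfiredoxin, was lower as well (-0.29), with its call ended in 5 of 14 alternatives. Hspa1a, Hspa1b and Srxn1 were named after their values were seen, and the Hspa1a call ended in 8 of 14 alternatives. The Hspa5 call ended without control replicate 2, and that of Hsp90aa1 without control replicate 2 or Treg-ablated replicate 1. With the GC offset the Dnajb9 call ended (log2 fold change 0.23, adjusted p = 0.0508), and so did that of Hsp90aa1 (0.23, adjusted p = 0.054). Without control replicate 2 the list had 4 higher and 0 lower, without Treg-ablated replicate 1 it had 1 lower, and with the GC offset 5 were higher and 1 lower. With replicate number as a block, a pairing the labels do not state, 6 were higher and 0 lower. With that block and the GC offset together only 2 were higher and 1 lower, so neither the share higher nor the split held in every setting. Whether handling of the tumours had a part in any of these values was not tested.

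Upstream kinases and serum response factor genes were higher in 2 and lower in 3 of 17 tested, with a median log2 fold change of -0.08. The share higher, 11.8%, was near that over all genes tested, where 13.5% were higher and 12.3% lower. Map2k1, which encodes the kinase MEK1, rose by 0.28 and Elk3 by 0.22, while Elk1, a partner of serum response factor, fell by 0.46 on the log2 scale (adjusted p = 0.00323), Mapk14 by 0.25 and Mapkapk2 by 0.21. Elk1 was the only one of these called in each of 14 alternatives. Srf itself, named after its value was seen, had 82.15 and 80.11 against 81.42, 79.83 and 80.82 CPM. Leaving out Treg-ablated replicate 1 gave 0 higher and 1 lower, and so did leaving out control replicate 2. The Mapkapk2 call ended in 8 of 14 alternatives, and those of Mapk14 and Elk3 in 6 each. With the GC offset Mapkapk2 was at -0.06 (adjusted p = 0.443).

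Around Myc, 1 of 9 tested MYC network partners was higher (11.1%, near the 13.5% of all genes tested) and 0 were lower. This was Mxi1, which encodes a competitor of MYC for MAX (log2 fold change 0.40, SE 0.0639, adjusted p = 0.00225). Among 20 MYC target genes 9 were higher, 5 lower and 6 did not pass, with a median log2 fold change of 0.05. The nucleolar genes Npm1 (0.48), Gnl3 (0.42), Nop56 (0.40) and Nop58 (0.33) rose, while Cad, a pyrimidine synthesis gene, fell from 330.1, 331.1 and 316.4 to 210.3 and 222.2 CPM (log2 fold change -0.59, SE 0.0661, adjusted p = 0.000416) and Mybbp1a fell (-0.34). Bop1 (-0.33), Polr1b (-0.26) and Pes1 (-0.25) were also lower and were named after their values were seen. Without control replicate 2 the counts were 4 higher and 2 lower, Nop58, Bop1, Polr1b and Pes1 among those lost, and without Treg-ablated replicate 2, 2 were lower. With the GC offset the Nop58 call ended (log2 fold change 0.18, adjusted p = 0.0719), as did that of Bop1 (-0.18, adjusted p = 0.0654). With replicate number as a block 5 targets were higher and 2 lower. With that block and the GC offset together 5 were higher and 1 lower, and the Mybbp1a call ended. Npm1 has processed copies elsewhere in the genome, which makes its count less certain.

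**Figure D4:**
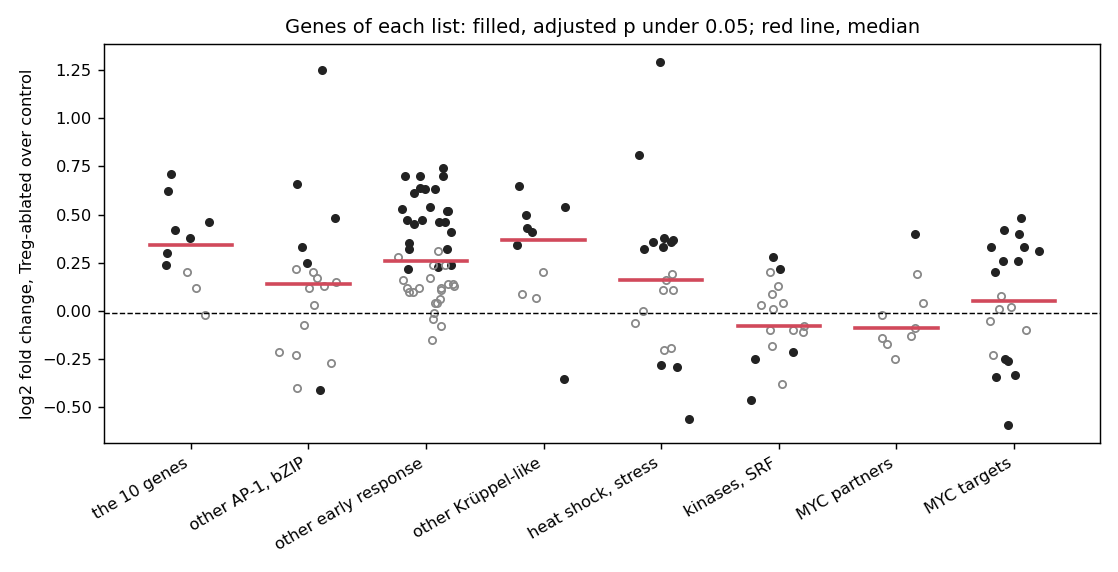
log2 fold change of each tested gene by list, horizontally jittered; filled points have an adjusted p under 0.05, red lines are list medians and the dashed line is the median of all genes tested. The 10 genes (median 0.34), the other early response genes (0.26) and the other Krüppel-like factors (0.37) lie mostly above 0, while the kinases and MYC partners (-0.08 and -0.09) do not.

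Several lists of cell type markers moved with the same groups. The 10 genes summed to 4702 and 4691 CPM after ablation and 3563, 3821 and 3705 CPM in the controls. T cell markers summed to 53.71 and 60.12 against 16.06 to 19.98 CPM, with 12 of 13 tested higher, NK and cytotoxic markers to 74.77 and 76.56 against 22.77 to 26.34 CPM, with 8 of 10 higher, and B and plasma cell markers to 67.46 and 84.11 against 20.23 to 24.24 CPM, with 7 of 9 higher. Lck, a T cell kinase gene, and Gzmb, which encodes granzyme B, are among them (log2 fold changes 1.72 and 2.51). Macrophage markers summed to 264.2 and 222.4 against 409 to 428.6 CPM, with 9 of 13 lower, Csf1r (-1.19) and Lyz2 (-0.82) among them, and fibroblast markers to 20640 and 23160 against 22240 to 26290 CPM, with 9 lower and 1 higher of 15. Of 10 neutrophil markers 7 were too low to test. Epithelial and mammary tumour markers summed to 313.6 and 271.8 against 307.5 to 333.3 CPM, with 0 of 6 tested called. Endothelial markers were called in 0 of 6, and of 7 dendritic cell markers 1 was higher and 1 lower. In sorted bulk cells, fewer cells of a type and less RNA per cell cannot be told apart. The part of the marker shifts in the values of the 10 genes was not tested.

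**Figure D5:**
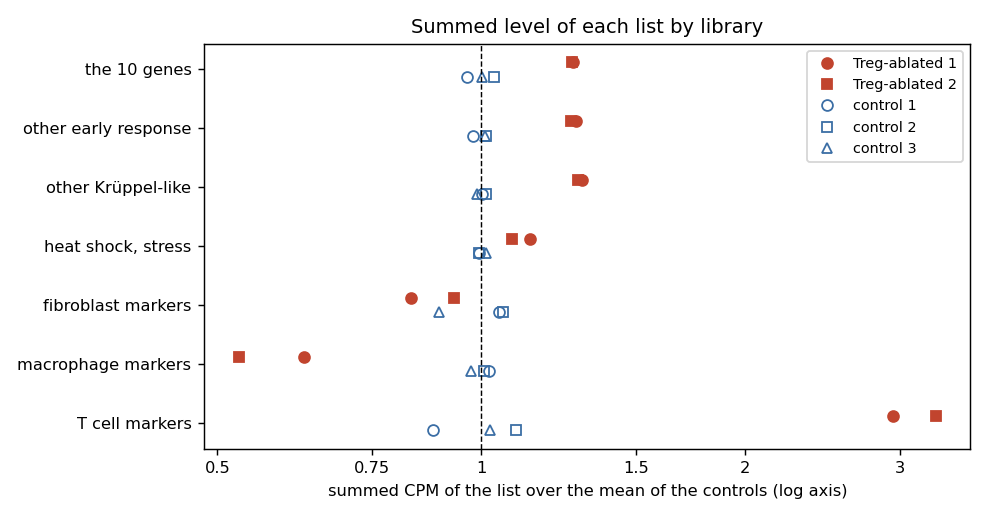
Summed CPM of each list in each library, divided by the mean of the 3 controls (log axis); filled red symbols are Treg-ablated libraries and open blue symbols controls. The 10 genes, the other early response and Krüppel-like lists and the heat-shock and stress list lie above 1 in both Treg-ablated libraries. The T cell markers do too, while the macrophage markers lie below 1 in both.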

How the data were processed

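RNA-seq gene counts of 5 libraries were used, 2 Treg-ablated and 3 control, grouped by sample title. The deposited values are fragment counts per gene that, per the file headers, came from featureCounts 1.6.2 and a filtered Ensembl 83 annotation of GRCm38, summed over exons, with no strand option (the labels name a stranded library kit) and no option for fragments that overlap several genes or match several places. The counts are whole numbers and are not normalized.

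Symbols were joined by Ensembl identifier. Genes kept by filterByExpr were given TMM factors, and the groups were compared by the quasi-likelihood test in edgeR 4.0.16 (R 4.3.3), with no block and Benjamini-Hochberg adjustment over 14580 genes. SEs are the log2 fold change over the square root of F. CPM use TMM-scaled library sizes. A count of 3 corresponds to 0.1502 to 0.2263 CPM, which covers counting error only. Replicates differed beyond sampling noise (chi-square per degree of freedom of 3.884 to 7.241), so none was treated as a duplicate. Run on simulated counts, the test recovered 75.3% of genes changed 1.5-fold and 91.9% of genes changed 2-fold. The simulation left the scarcest genes unchanged and changed far fewer genes than were called in the real data. Its adjusted p cutoff was therefore stricter, and these shares cannot be carried over. Recovery was not measured at smaller folds, such as those of Fos (1.18) and Jun (1.37), so it is unknown there. Of the simulated calls 8.65% were unchanged genes, which was above the nominal rate. That share rests on 16 genes and cannot be carried over to the real data as a rate. Calls near the threshold are still taken as less certain than their adjusted p.

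Members and lists were chosen with earlier results of these data known. Named genes are the 10 members, up to 6 genes with the smallest p per list and up to 3 most abundant markers per list; others are said to be named after their values were seen. One gene of the stress list is not reported by name here. Alternatives were RLE and library size scaling, 2 other filters, DESeq2 1.42.0, limma-voom (limma 3.58.1), the replicate block, testing against a 1.5-fold difference, a lowess GC offset (longest GENCODE M21 transcript), both together, and each library left out. With 1 Treg-ablated library left, it is assumed to vary like the controls.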

Additional observations from a re-analysis of the deposited data

How the results depend on the processing

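The number of the 10 genes called higher was 5 to 9 over all alternatives other than the test against a fold of 1.5, where it was 0, and 0 were called lower in any. It was 5 to 8 when each library was left out, 7 under DESeq2 and limma-voom, and 9 with the GC offset. Over all genes, 1971 were higher and 1787 lower. These counts were 98 and 23 against a fold of 1.5, and 812 to 1687 higher and 554 to 1538 lower with each library left out, the smallest without control replicate 2. With the replicate block they were 1296 and 1116, and 1239 and 1156 with the GC offset as well. The labels do not say that the numbers pair the libraries. Same-numbered libraries had deviations from their group means correlated over genes by -0.226 and -0.021. The deviations of the 2 Treg-ablated libraries mirror each other, so these values cannot settle whether libraries are paired. Under the block 5 of the 10 genes were called, Fos and Jund not (adjusted p = 0.182 and 0.0945). Ier2 did not pass under any alternative and changed sign under the block (0.03), the GC offset (0.12), both (0.16) and with a library left out (-0.10 to 0.06). Col3a1, a fibroblast marker, was at -0.06 under the block and -0.06 to 0.11 with a library left out, Dusp1 at -0.03 to 0.10 and Srf at -0.01 to 0.03 likewise, with Srf at -0.01 under the filter of 1 count. None of the 3 passed. Klf4, Myc, Jun, Fosb and Egr1 passed in each of 14 alternatives other than the test against a fold. The causes of these changes were not tested.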
